A study of Mus musculus with 32 samples.

Results

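The *Hoxa* cluster is a row of homeobox genes on mouse chromosome 6, transcribed from the minus strand, and 9 of its genes (*Hoxa2*, *Hoxa3*, *Hoxa4*, *Hoxa5*, *Hoxa6*, *Hoxa7*, *Hoxa9*, *Hoxa10* and *Hoxa11*) are described here in order from 3′ to 5′. They were chosen by symbol, and eCLIP peaks were given to a gene by the Ensembl ID that the authors put in each peak's name. Of the 9 genes, 5 (*Hoxa2*, *Hoxa7*, *Hoxa9*, *Hoxa10* and *Hoxa11*) are among the 23620 genes listed in both RNA-seq tables, and 28827 genes are in at least 1 table. The RNA levels of *Hoxa3*, *Hoxa4*, *Hoxa5* and *Hoxa6* were not analysed here. The 9 genes span 83394 bases of the GRCm38 (mm10) genome, from 52162417 to 52245810.

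The study measured RNA levels and the RNA contacts of the RNA-binding protein IGF2BP3 in mouse cells that carry the leukemia fusion MLL-Af4. Its 32 libraries are 12 of RNA-seq, 10 of IGF2BP3 eCLIP and 10 of size-matched input (smInput), and they come from cells named Lin- and CD11b+. RNA-seq has 3 WT and 3 I3KO libraries for each cell type, where I3KO is a germline loss of *Igf2bp3* made by deleting a floxed exon with a leaky Vav1-Cre. eCLIP has 3 biological and 3 technical libraries of Lin- cells and 2 biological and 2 technical libraries of CD11b+ cells, all from WT/MLL-Af4 cells by the paper, each with its own input.

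Lin- cells are bone marrow cells of C57BL/6J or I3KO mice that were depleted of lineage-positive cells on magnetic beads, infected with a retrovirus coding for flag-tagged MLL-Af4, selected with G418 and grown in culture with cytokines. CD11b+ cells were selected on beads from splenic tumors of recipient mice with WT/MLL-Af4 or I3KO/MLL-Af4 leukemia. Lin- cells are thus a selected culture, and CD11b+ cells come out of a transplanted host, whose remaining blood cells were not measured. The labels give no age, the names of Lin- and CD11b+ eCLIP libraries alike start with bm although the paper takes CD11b+ cells from spleen, and no label says which biological library a technical one repeats. Cell type, culture and tissue change together between the groups and cannot be told apart.

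*Hox* genes code for transcription factors that bind DNA through a homeodomain and set position along the body axis, and their order on the chromosome follows the order of their use from head to tail. In blood, the central and 5′ *Hoxa* genes are active in stem and progenitor cells and are switched off as cells mature. Fusions of MLL bind the cluster and keep it transcribed, and *Hoxa9* with its cofactor *Meis1* is the best known target of these fusions in leukemia.

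In eCLIP, RNA is crosslinked to protein by UV light, the protein is pulled down with an antibody (here against IGF2BP3), and the attached RNA fragments are sequenced. Peaks were called by the authors with CLIPper, library by library, and those that overlap peaks of the input were removed. After that filter, the Lin- libraries held 7361, 10042 and 8685 peaks (biological, 1 to 3) and 4040, 6494 and 4510 peaks (technical, 4 to 6). The CD11b+ libraries held 8521 and 10054 peaks (biological, 1 and 2) and 7586 and 7085 peaks (technical, 3 and 4). The technical libraries were lower than the biological ones in both cell types, and the cell types overlapped. The input libraries held 217 to 1808 peaks in Lin- and 1381 to 1885 in CD11b+ cells. The read depth of the eCLIP libraries is unknown, yield can be judged by these peak numbers alone, and the lack of a peak does not show that IGF2BP3 was absent from a gene. The last number in each peak's name is read here as its number of reads, and the fewest in any peak was 3.

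The labels of the cells were compared with marker genes in the RNA-seq tables, which hold 1 mean normalized count per gene and cell type, pooled by the authors over both genotypes. In Lin- cells, 5 of 5 progenitor markers had a mean of 10 or more normalized counts (summed 50273, highest *Myb*), among them *Kit* at percentile 93.6, *Flt3* at 97.3 and *Cd34* at 98.2 of all genes by level per kb. In CD11b+ cells, *Kit*, *Flt3* and *Cd34* stood at percentiles 66.6, 63.9 and 86.0, and the 5 markers summed to 40406, most of it *Myb*. The 8 myeloid markers summed to 243607 in CD11b+ cells (highest per kb *Lyz2*, percentile 99.9) and their 7 listed genes to 160980 in Lin- cells (highest *Mpo*). These sums cover different genes and carry the scale of each table, so no myeloid shift is read from them. By percentile, *Lyz2*, *Csf1r*, *Ly6c2*, *Elane* and *Spi1* stood higher in CD11b+ cells. *Mpo* and *Cebpa* stood lower there, *Cebpa* at 94.5 beside 97.3 in Lin- cells. The mean of *Mpo* was 84102 in CD11b+ and 101212 in Lin- cells. *Itgam*, the gene that codes for CD11b itself, was low in RNA: its mean in CD11b+ cells was 17 normalized counts, at percentile 30.4. Its level in Lin- cells was not analysed here. The CD11b+ cells were selected by surface protein, which this RNA level does not measure. In eCLIP, *Itgam* carried 23 peaks over all 4 CD11b+ libraries and 2 peaks over 2 Lin- libraries. Why its RNA level was low beside these peaks was not tested, and the name CD11b+ is used as the label of a sample group.

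Markers of other cells moved between the tables too. The 4 B cell markers summed to 36.5 in Lin- and 416 in CD11b+ cells, with *Cd79a* highest per kb in both. The 4 erythroid markers summed to 177 and 2381, with *Hbb-bs* highest in Lin- and *Hba-a1* in CD11b+ cells. The 2 megakaryocyte markers, *Pf4* and *Itga2b*, went the other way, from 2315 to 44.7. Macrophage markers (3 genes, highest *Adgre1*) summed to 1319 and 2856, T cell markers to 16.6 and 12.4, NK cell markers to 5.18 and 3.57, and spleen stroma markers to 7090 and 3885, nearly all of it *Pecam1*. No listed marker stood at 0. The levels of *Cd3e*, *Ncr1* and *Ccl21a* in Lin- cells were not analysed here. These sums carry the scale of each table, and their part in the *Hoxa* levels was not tested.

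Levels of the members were compared after dividing each mean by the length of the gene's exons in kb, and the tables were compared with each other only by percentile among all genes. *Hoxa2*, which patterns the hindbrain and pharyngeal arches, had a mean of 23.7 normalized counts in Lin- cells, or 13.3 per kb (percentile 42.4). In CD11b+ cells *Hoxa2* had a mean of 12.0, or 6.77 per kb (percentile 37.0). Both values lay below the median gene, which had 35.2 per kb in the Lin- and 30.0 per kb in the CD11b+ table. *Hoxa7*, a homeobox gene next to *Hoxa9* that MLL fusions also target, had 844 per kb in Lin- (mean 2102, percentile 89.1) and 605 per kb in CD11b+ cells (mean 1506, percentile 88.3). *Hoxa9*, which drives self-renewal of blood progenitors, had 1408 per kb in Lin- (mean 4541, percentile 94.1) and 723 per kb in CD11b+ cells (mean 2332, percentile 90.1). Both genes were thus in the upper part of each table, and *Hoxa9* was first among the 5 listed members per kb in each.

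*Hoxa10*, which acts in the uterus and in blood progenitors, had 169 per kb in Lin- (mean 531, percentile 65.2) and 283 per kb in CD11b+ cells (mean 888, percentile 78.5). *Hoxa11*, the most 5′ of the 9 genes and best known from the forearm, kidney and uterus, had 0.294 per kb in Lin- (mean 0.672, percentile 6.57) and 5.89 per kb in CD11b+ cells (mean 13.5, percentile 35.7). The level per kb of *Hoxa10* was 575 times that of *Hoxa11* in Lin- cells and 48 times in CD11b+ cells, so among the listed members the high levels ended between these neighbours. *Hoxa9* was 1.67 times *Hoxa7* per kb in Lin- and 1.20 times in CD11b+ cells, and divided by the longest transcript instead, *Hoxa9* ranked 2 in CD11b+ cells, after *Hoxa7*. The order of the others per kb was *Hoxa10*, *Hoxa2*, *Hoxa11* in both tables. By percentile, *Hoxa10* and *Hoxa11* stood higher in CD11b+ cells, and *Hoxa2*, *Hoxa7* and *Hoxa9* stood lower. The tables give no value per library, so none of these neighbours in the order can be set against the spread between libraries. In bulk RNA, fewer cells that express a gene and less RNA in each cell cannot be told apart.

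**Figure D1:**
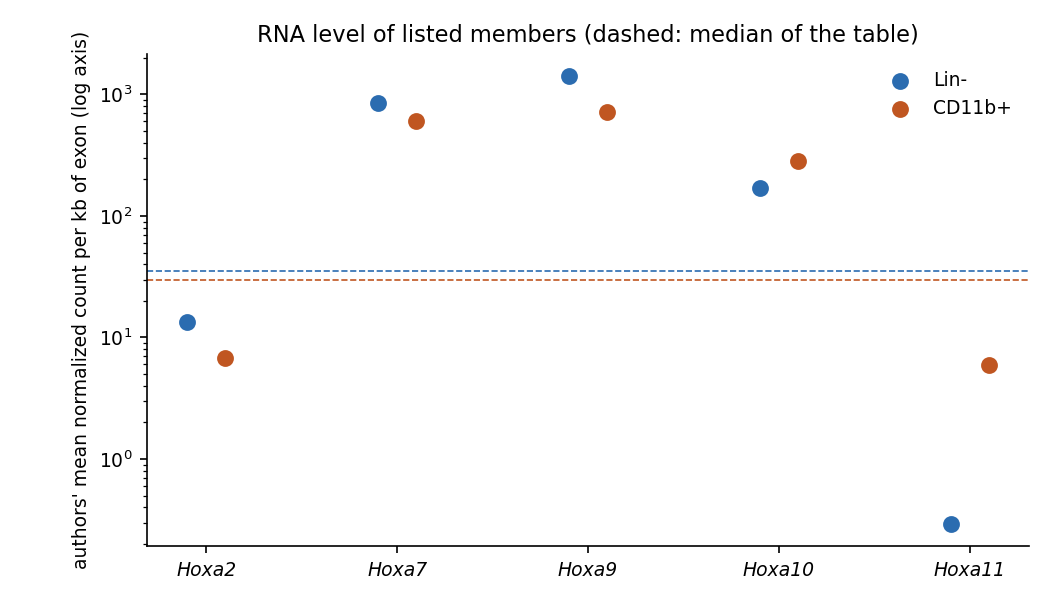
RNA level of the 5 listed members (x axis, from the 3′ to the 5′ end) as the authors' mean normalized count per kb of exon (y axis, log scale) in Lin- (blue) and CD11b+ cells (orange), each point 1 pooled mean without spread; dashed lines mark the median of each table. *Hoxa7*, *Hoxa9* and *Hoxa10* lie above these medians of 35.2 and 30.0, while *Hoxa2* and *Hoxa11* lie below.

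Over the 10 eCLIP libraries, 84 filtered peaks carried a member's ID. Before the filter there were 84 as well, and the 10 inputs held 0 peaks on the members. The members' peaks numbered 6, 15 and 6 in the biological and 4, 6 and 4 in the technical Lin- libraries. They numbered 15 and 8 in the biological and 13 and 7 in the technical CD11b+ libraries. Lin- library 2 stood apart from the other Lin- libraries, and the ranges of the cell types overlapped. As a share of each library's peaks this was 0.0815%, 0.149% and 0.0691%, then 0.0990%, 0.0924% and 0.0887% in Lin- libraries 1 to 6, and 0.176%, 0.0796%, 0.171% and 0.0988% in CD11b+ libraries 1 to 4. The shares overlapped between the cell types as well.

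In Lin- cells, 6 of 9 members had a filtered peak in any library, all but *Hoxa2*, *Hoxa5* and *Hoxa11*. In CD11b+ cells, 8 of 9 had one, all but *Hoxa11*. Counted by gene span, this was 7, without *Hoxa2*. With at least 5 reads in the peak, an alternative chosen after seeing the data, it was 6. That leaves out *Hoxa2* and *Hoxa10*, whose CD11b+ peaks had at most 3 and 4 reads and which are counted among the listed members below. The Lin- count was 6 under both. For the genes of the RNA-seq tables a background can be given: 3 of 5 listed members had a peak in Lin- cells, where 26.5% of all genes in the table did, and 4 of 5 in CD11b+ cells, where 25.6% did. Among genes whose mean was 10 normalized counts or more, 3 of 4 members had a peak in Lin- cells, beside 39.8% of all such genes, and 4 of 5 in CD11b+ cells, beside 37.1%. A peak in every library of the cell type was found on 1 of 5 listed members, *Hoxa9*, in Lin- cells (3.16% of all genes) and on the same gene in CD11b+ cells (6.32%). A peak in at least 2 biological libraries was found on 2 of 5 listed members in Lin- cells, *Hoxa7* and *Hoxa9* (13.7% of all genes), and on 2 of 5 in CD11b+ cells, *Hoxa9* and *Hoxa10* (10.2%). Counting all 9, that was 4 members in each cell type, and *Hoxa3* and *Hoxa6* also had a peak in each of the 4 CD11b+ libraries. *Hoxa9* is 1 of 498 genes with a peak in all 10 libraries, which is 4.89% of the 10190 genes with any peak.

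**Figure D2:**
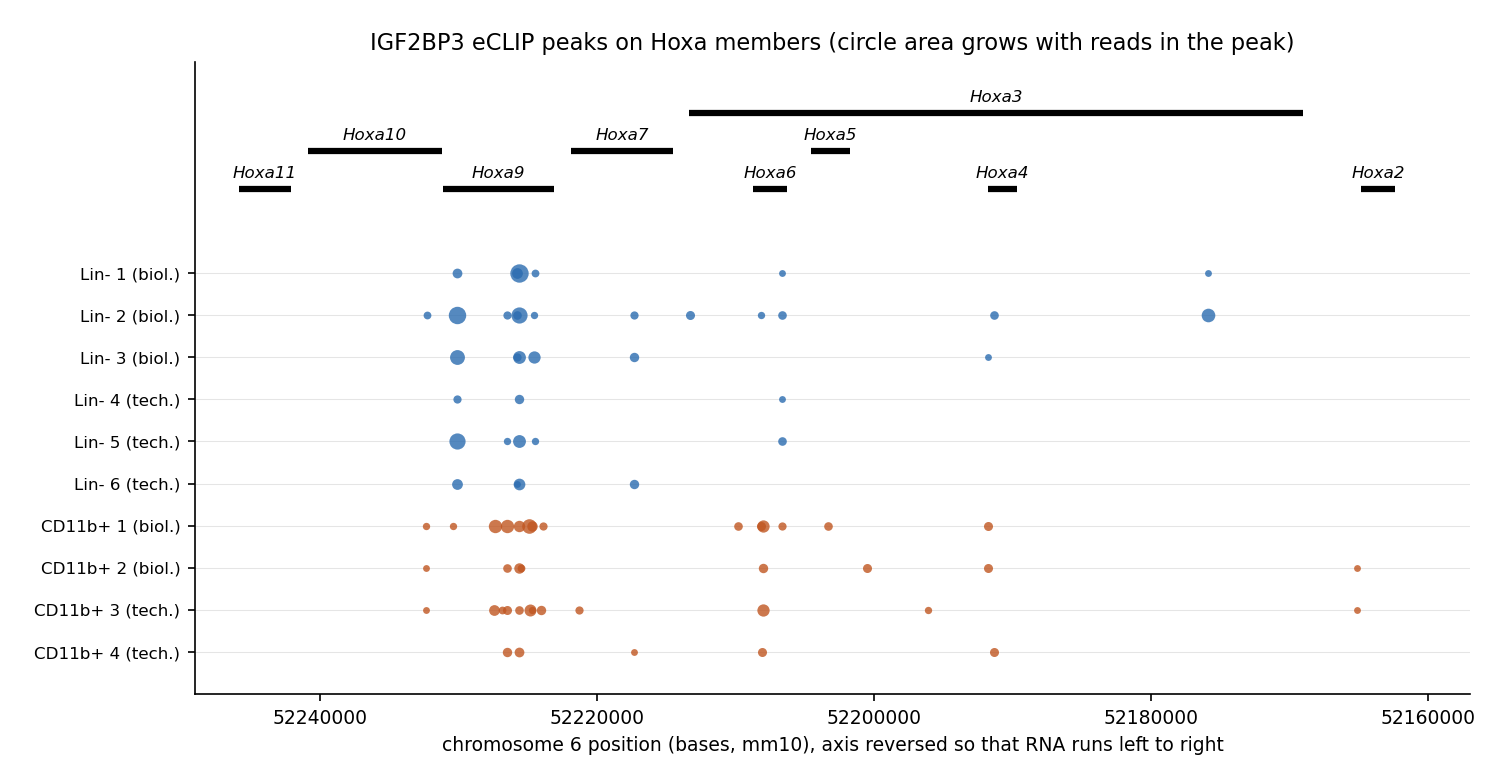
Filtered IGF2BP3 eCLIP peaks on the members by library (lanes; blue, Lin-; orange, CD11b+) along chromosome 6 in bases, with the axis reversed so that RNA runs from left to right and the 5′ end of the cluster is at the left; circle area grows with reads in the peak. Every lane has peaks on *Hoxa9*, and no lane has a peak on *Hoxa11*.

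Peaks that overlap on the same strand were merged over the libraries of both cell types into 28 windows, and positions below are bases of chromosome 6, minus strand. Counted by peaks under members' IDs, 8 windows had peaks of both cell types, 5 had peaks of Lin- libraries alone and 15 of CD11b+ libraries alone. The 5 include a window at *Mir196b*, where CD11b+ libraries 1 and 4 had a peak under the ID of that gene. The same count over all peaks is not given here, so overlap between the cell types has no background, here or below. In all, 17 windows were found in at least 2 libraries and 11 in 1. The span of *Hoxa3* contains *Hoxa4*, *Hoxa5* and *Hoxa6*, so that 8 of the 75 pairs of a window and a library had peaks under 2 members' IDs.

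*Hoxa2*, the most 3′ of the 9 genes, had 1 window, 52165098 to 52165154, upstream of the annotated start of the gene and inside an intron of the readthrough gene *Gm28308*. It had 3 reads in CD11b+ library 2 and 3 in library 3, the smallest number any peak has, and no peak in a Lin- library. The letters CACA occur 8 times in the 50-base window around its midpoint.

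*Hoxa3*, which is needed for the thymus and the parathyroid, had 1, 4 and 1 peaks in the biological and 1, 1 and 0 in the technical Lin- libraries. In CD11b+ libraries it had 3 and 2 (biological) and 2 and 2 (technical). All CD11b+ libraries and 5 of 6 Lin- libraries had one, and the groups overlapped. Some of these peaks fell in a merged window that also held a peak of *Hoxa4* or *Hoxa6* in the same library. Over all members, only 1 peak had the same position under more than 1 ID. Without the *Hoxa3* peaks in such shared windows, 1, 2 and 1 (biological) and 0, 0 and 0 (technical) were left in Lin- and 2 and 2, then 1 and 0, in CD11b+ libraries. The biological libraries held 2.0 ± 1.73 (SD, n = 3) peaks in Lin- and 2.5 ± 0.707 (SD, n = 2) in CD11b+ cells, a difference of -0.50 (two-sided exact permutation p = 0.80). Without the peaks in windows shared with another member, an alternative chosen after seeing the data, it was -0.667 (exact permutation p = 0.400). With 3 libraries against 2, such a test cannot give a p below 0.10.

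Away from the genes nested in it, *Hoxa3* had 5 windows, all outside its coding exons. The window at 52175877 to 52175898 was found in Lin- cells alone, with 3 reads in library 1 and 23 in library 2. Windows at 52196088 to 52196122, 52200509 to 52200560 and 52209816 to 52209840 were each found in 1 CD11b+ library, with 4, 8 and 7 reads. The window at 52213258 to 52213312, in the 5′ UTR of *Gm28308* near the 5′ end of *Hoxa3*, was found in Lin- library 2 with 8 reads. None of these 5 windows was found in both cell types, a count without a background over all peaks.

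*Hoxa4*, a neighbour with a role in the vertebrae of the neck, had 1 peak of its own in each cell type. It lies in the coding exon at 52191314 to 52191388, with 7 reads in Lin- library 2 and 8 in CD11b+ library 4. A window at the annotated start of *Hoxa4*, 52191724 to 52191783, carries the ID of *Hoxa3*. It had 3 reads in Lin- library 3 and 8 in each of CD11b+ libraries 1 and 2. *Hoxa5*, known for its part in lung development, had 1 peak, in its intron at 52203267 to 52203334, with 7 reads in CD11b+ library 1.

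*Hoxa6*, a central member of the cluster, had 1, 2 and 0 peaks in the biological and 1, 1 and 0 in the technical Lin- libraries. In CD11b+ libraries it had 3 and 1 (biological) and 1 and 1 (technical). The biological means were 1.0 ± 1.0 (SD, n = 3) and 2.0 ± 1.41 (SD, n = 2), a difference of -1.0 (two-sided exact permutation p = 0.50, where 0.10 is the smallest possible). These counts overlap, and of the 3 windows behind them 2 were found in both cell types and 1 in CD11b+ cells alone.

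The window at 52206614 to 52206682 covers the 3′ splice site of the *Hoxa6* intron, whose exon begins at 52206624, and its midpoint lies at -24 bases, before the site. It had 3, 7, 3 and 7 reads in Lin- libraries 1, 2, 4 and 5 and 6 reads in CD11b+ library 1, where the peak ended before the site. Further into the same intron, the window at 52208001 to 52208101 had 18, 9, 18 and 8 reads in CD11b+ libraries 1 to 4 and no peak in a Lin- library. Reads put this peak at percentiles 83.0, 54.3, 84.1 and 54.5 of the peaks of its CD11b+ libraries. One more *Hoxa6* window, 52208144 to 52208194, covers the 5′ splice site of the intron at 52208186, with 4 reads in Lin- library 2 and 8 in CD11b+ library 1. The window of the 4 CD11b+ libraries is a purine repeat: 97.0% of its bases are A or G, and GAAG is repeated over 58 of its 101 bases. The sequences below are on the RNA strand of the mm10 genome and show this contrast. In the first, chr6:52206614-52206682 (minus strand), capitals mark the exon after the splice site. In the next, chr6:52208001-52208101 (minus strand), they mark unbroken purine runs of at least 10 bases, 98 bases in all.
Hoxa6 w08: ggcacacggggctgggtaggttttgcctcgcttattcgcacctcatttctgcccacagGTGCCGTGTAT
Hoxa6 w09: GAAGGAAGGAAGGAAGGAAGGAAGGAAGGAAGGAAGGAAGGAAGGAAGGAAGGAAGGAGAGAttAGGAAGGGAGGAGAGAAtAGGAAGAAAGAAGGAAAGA

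*Hoxa7* had 0, 1 and 1 peaks in the biological and 0, 0 and 1 in the technical Lin- libraries, and 0, 0, 1 and 1 in CD11b+ libraries 1 to 4. Its means over biological libraries differed by 0.667 (two-sided exact permutation p = 0.400, n = 3 and 2), and no biological CD11b+ library had a peak. The window at 52217296 to 52217353 was found in both cell types, with 6, 9 and 9 reads in Lin- libraries 2, 3 and 6 and 3 reads in CD11b+ library 4. It lies in a coding exon of the full-length transcript and covers a 3′ splice site that an alternative *Hoxa7* transcript uses inside that exon, at 52217297, with its midpoint at -27 bases. Of the peaks merged into this window, only that of Lin- library 3 reached the site. A forward primer that the study named *Hoxa7*-Alt, 52217968 to 52217987, matches this alternative transcript and 1 other, of 5 annotated *Hoxa7* transcripts. The other window, 52221234 to 52221318, was found in CD11b+ library 3 with 6 reads, in an intron of a further *Hoxa7* transcript and outside the basic gene models, and GA is repeated over 54 of its 85 bases. The first window is shown for its splice site, chr6:52217296-52217353 (minus strand), with the exon of the alternative transcript in capitals.
Hoxa7 w13: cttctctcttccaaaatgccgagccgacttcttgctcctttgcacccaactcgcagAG

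*Hoxa9* held the most peaks of any member. It had 4, 6 and 4 in the biological and 2, 4 and 3 in the technical Lin- libraries, and 7, 3, 7 and 2 in CD11b+ libraries 1 to 4. The ranges overlapped, 2 to 6 in Lin- and 2 to 7 in CD11b+ cells, and CD11b+ libraries 1 and 3 were highest. The biological means were 4.67 ± 1.15 (SD, n = 3) and 5.0 ± 2.83 (SD, n = 2), a difference of -0.333 that is smaller than the spread between libraries (two-sided exact permutation p = 1.0, smallest possible 0.10). Without CD11b+ library 1 the difference turned to 1.67, with 3 libraries against 1. Without peaks at the *Mir196b* hairpin, an alternative chosen after seeing the data, it was -1.67 (exact permutation p = 0.70). With those peaks kept and technical libraries added, which are not independent, it was -0.917. In the inputs, which had fewer peaks and were called with other settings, *Hoxa9* had 0 peaks in every library. As every eCLIP library had a peak on this gene, a test against inputs of 0 can only return its smallest possible p, so nothing is read from it.

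Merged within a cell type, the *Hoxa9* peaks made 5 windows in Lin- cells, as did those of *Hoxa3*. Of the 7944 genes with a Lin- peak, 1121 (14.1%) had at least as many, and the median gene had 2.0. In CD11b+ cells they made 10 windows, and 167 of 7341 genes with a peak (2.27%) had at least as many, beside a median of 1.0. The 2 lists of *Hoxa9* windows share positions in exon 1 and in the 5′ untranslated region (UTR), and the others were found in 1 cell type under the *Hoxa9* ID.

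**Figure D3:**
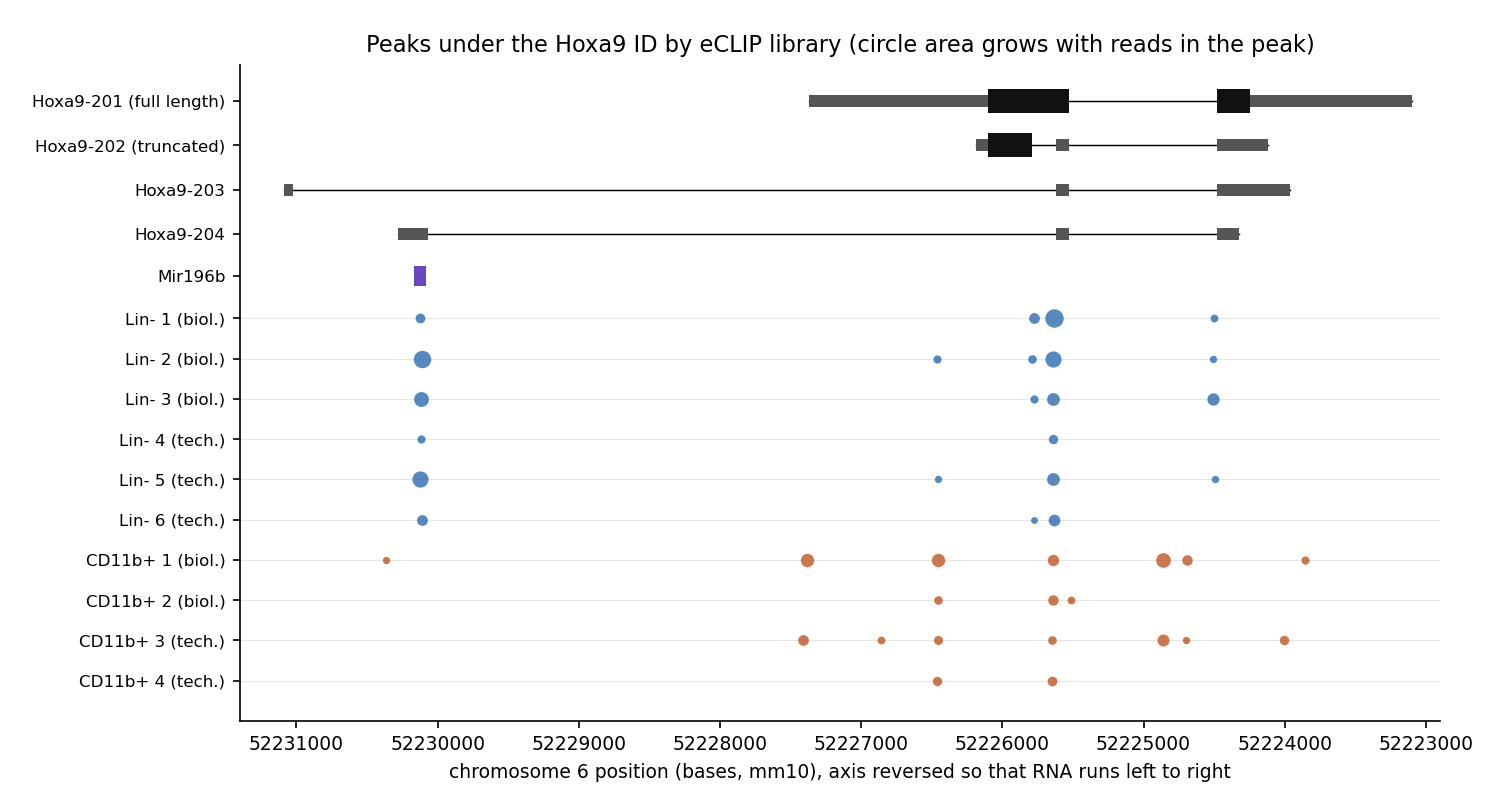
Peaks under the *Hoxa9* ID in each eCLIP library (lanes; blue, Lin-; orange, CD11b+) along chromosome 6 in bases, axis reversed, under 4 *Hoxa9* transcripts (thick black, coding; grey, other exons; thin, introns) and the *Mir196b* hairpin (purple); circle area grows with reads in the peak. The peak in exon 1 of the full-length transcript (top) is in all 10 lanes and the one at *Mir196b* in the 6 Lin- lanes alone.

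The window found in every library lies in exon 1 of *Hoxa9*, at 52225603 to 52225674. It had 45, 34 and 20 reads in the biological and 9, 20 and 16 in the technical Lin- libraries. In CD11b+ libraries 1 to 4 it had 15, 12, 7 and 10 reads. Every biological Lin- library was above every CD11b+ library, and the technical Lin- library 4 was within the CD11b+ range. Ranked by reads among the peaks of its own library, the window stood at percentiles 97.0, 89.4, 93.4, 77.4, 81.8 and 90.3 in Lin- libraries 1 to 6 and at 77.8, 66.3, 46.2 and 64.0 in CD11b+ libraries 1 to 4. On this scale too the groups met, between Lin- library 4 and CD11b+ library 1. Its smallest CLIPper p, as the authors deposited it, was 1.2e-49 in Lin- and 2.2e-10 in CD11b+ libraries.

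All 72 bases of this window are coding in the full-length *Hoxa9* transcript. It covers the 3′ splice site at 52225617 of an intron that another annotated form, the truncated *Hoxa9* transcript, removes from the middle of exon 1. Its midpoint lies at -21 bases, before that site. The intron runs from 52225790 to 52225618 and is 173 bases long, which leaves a remainder of 2 on division by 3, and all 173 bases are coding in the full-length transcript. The truncated protein made from this splicing is known to lack the homeodomain. The intron begins with GT and ends with AG, and 59.5% of its bases are G or C. Another window, 52225750 to 52225811, covers the other end of the same intron, the 5′ splice site at 52225791. It had 13, 7, 6 and 3 reads in Lin- libraries 1, 2, 3 and 6 and no peak in a CD11b+ library. Of the intron's bases, 57 lie in the first window and 41 in the second.

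Primers of the study mark the same place. A forward primer named *Hoxa9T* matches the truncated transcript alone of those annotated for *Hoxa9*, with 11 of its 18 bases before the junction of 52225791 with 52225617. The reverse primer of the full-length assay lies at 52225660 to 52225679, inside the 173-base intron, and shares bases with the window of all 10 libraries. The stretch from the 5′ end of the Lin- window to the 3′ end of the shared one is shown because both windows lie in it, chr6:52225603-52225811 (minus strand), with the exons of the truncated transcript in capitals and its intron in lower case.
Hoxa9 exon 1 stretch: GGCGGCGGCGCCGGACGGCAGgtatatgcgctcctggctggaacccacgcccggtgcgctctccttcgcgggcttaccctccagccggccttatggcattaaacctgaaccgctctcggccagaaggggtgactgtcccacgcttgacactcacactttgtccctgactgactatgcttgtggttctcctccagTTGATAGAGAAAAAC

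**Figure D4:**
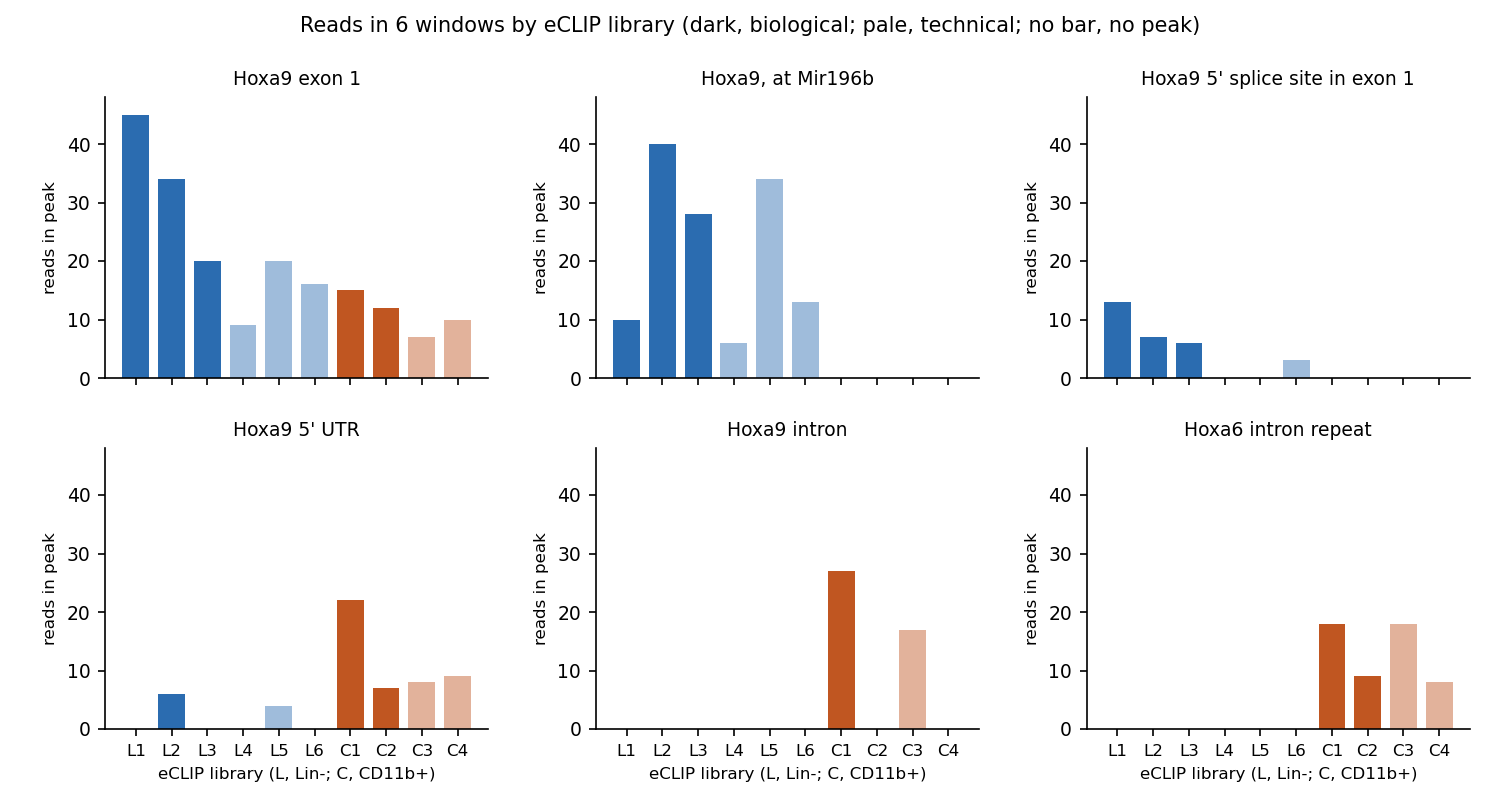
Reads in the peak (y axis, from 0) for 6 windows by eCLIP library, from peaks under members' IDs (x axis; L1 to L6, Lin-, blue; C1 to C4, CD11b+, orange; dark, biological; pale, technical; no bar, no peak under a member's ID). The exon 1 window has a bar in all 10 libraries (7 to 45 reads), the *Mir196b* window in the 6 Lin- libraries (6 to 40 reads) and the *Hoxa6* repeat in the 4 CD11b+ libraries (8 to 18 reads).

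The intron between the coding exons of *Hoxa9* held peaks of different places in the cell types. At its end, the window 52224477 to 52224536 covers the 3′ splice site at 52224482, used by the full-length and the truncated transcript, with its midpoint at -24 bases. It had 5, 4, 18 and 4 reads in Lin- libraries 1, 2, 3 and 5 and no peak in a CD11b+ library. Further inside the intron, the window 52224658 to 52224726 had 12 and 4 reads in CD11b+ libraries 1 and 3, and the window 52224821 to 52224906 had 27 and 17 reads in the same libraries. These had no peak in a Lin- library, and 91.3% and 84.9% of their bases are purines, beside 35.0% in the window at the splice site. Another window of CD11b+ cells alone in this intron, 52225499 to 52225526, has 39.3% purines. The splice site window, chr6:52224477-52224536 (minus strand), has the next exon in capitals, and the purine-rich one, chr6:52224821-52224906 (minus strand), has unbroken purine runs of at least 10 bases in capitals.
Hoxa9 w17: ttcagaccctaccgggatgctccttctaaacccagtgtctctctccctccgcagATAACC
Hoxa9 w19: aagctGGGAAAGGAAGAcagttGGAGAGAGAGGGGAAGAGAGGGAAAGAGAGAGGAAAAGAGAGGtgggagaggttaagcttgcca

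In the 5′ UTR of *Hoxa9*, the window 52226429 to 52226488 had 22, 7, 8 and 9 reads in CD11b+ libraries 1 to 4 and 6 and 4 reads in Lin- libraries 2 and 5. All CD11b+ libraries and 2 of 6 Lin- libraries had this peak, with library 1 of CD11b+ far above the rest. At the start of the full-length transcript, the window 52227314 to 52227464 had 22 and 13 reads in CD11b+ libraries 1 and 3, and 85.4% of its bases are purines. The remaining windows under the *Hoxa9* ID were each found in 1 CD11b+ library. They are 52223838 to 52223873 (6 reads) and 52223971 to 52224039 (9 reads) in the 3′ UTR, 52225499 to 52225526 (5 reads) in the intron, 52226836 to 52226877 (5 reads) in the 5′ UTR and 52230345 to 52230389 (4 reads) near *Mir196b*. At the last of these, a second Ensembl ID that the annotation used does not name also had peaks, with 9 and 5 reads in CD11b+ libraries 1 and 2.

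The *Hoxa9* ID also covers a microRNA gene, *Mir196b*, whose hairpin lies at 52230081 to 52230165 between the start of full-length *Hoxa9* and *Hoxa10*. The window 52230093 to 52230153 covers all 22 bases of both arms of the hairpin. It had 10, 40 and 28 reads in the biological and 6, 34 and 13 in the technical Lin- libraries, at percentiles 75.0, 91.1, 96.2, 59.4, 89.9 and 86.9 of the peaks of libraries 1 to 6. Under the *Hoxa9* ID no CD11b+ library had a peak here. Under the ID of *Mir196b* itself, all 6 Lin- libraries had a peak (9 to 35 reads), CD11b+ libraries 1 and 4 had one with 8 and 3 reads, and no input had one. Under this ID, every Lin- library had more reads than both CD11b+ libraries. Peaks here also carry another Ensembl ID, which the annotation used does not name, and reads of peaks that overlap under different IDs may be the same reads. The mature arms, from RefSeq on GRCm38.p6, are shown since the window contains both, with the seed (bases 2 to 8) in capitals, chr6:52230129-52230150 and chr6:52230094-52230115 (minus strand).
mmu-miR-196b-5p: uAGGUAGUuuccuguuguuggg
mmu-miR-196b-3p: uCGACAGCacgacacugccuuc

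*Hoxa10* had 1 window, 52232257 to 52232328, in its 3′ UTR. It had 5 reads in Lin- library 2 and 4, 3 and 3 reads in CD11b+ libraries 1 to 3. The biological means were 0.333 ± 0.577 (SD, n = 3) and 1.0 ± 0 (SD, n = 2) peaks, a difference of -0.667 (two-sided exact permutation p = 0.400, smallest possible 0.10). Reads in this peak were few in all 4 libraries. *Hoxa11* had no peak in any library. The same tests gave -0.50 for *Hoxa2* and *Hoxa5* (exact permutation p = 0.400 each, n = 3 and 2) and 0.333 for *Hoxa4* (exact permutation p = 1.0, n = 3 and 2).

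Across the members, merged peaks were next set beside all merged peaks of the cell type. In Lin- cells, 4 of 13 member peaks had a midpoint within 50 bases of an annotated 3′ splice site, beside 43.4% of all 19876 merged peaks. All 4, on *Hoxa6*, *Hoxa7* and *Hoxa9* (2 of them), lay before the site and covered it. In CD11b+ cells, 3 of 23 member peaks were near such a site, beside 11.5% of 17127, a share close to that of all peaks. They lie on *Hoxa6*, *Hoxa7* and *Hoxa9*, before the site, and with a limit of 25 bases the count was 0. Of the 3, 1 covered its site, on *Hoxa9*, while the CD11b+ peaks on *Hoxa6* and *Hoxa7* ended before it. Of all peaks near a 3′ splice site, 95.6% in Lin- and 96.3% in CD11b+ cells lay before it, so the side is shared with peaks in general.

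An exonic midpoint was found for 8 of 13 member peaks in Lin- cells (22.7% of all peaks) and for 9 of 23 in CD11b+ cells (16.5%). The 8 include the window at the *Mir196b* hairpin. The background was not matched for the share of exon in a gene, so no preference for exons is read from this. Exons make up 3226 of the 7990 bases of *Hoxa9* and 2591 of the 44275 bases of *Hoxa3*. The other Lin- peaks on members, 5, were intronic, and in CD11b+ cells 11 were intronic and 3 outside the basic gene models. In the 20 bases before the closing AG, the 4 splice sites covered by a window had 15 (*Hoxa6*), 15 (*Hoxa7*), 16 (*Hoxa9*, 52224482) and 15 pyrimidines (*Hoxa9*, 52225617). The median over 223449 annotated 3′ splice sites ending in AG was 15, so these sites were near the middle.

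Base composition is given next by the cell type in which a window was found, and its part in the presence of a peak was not tested. At least 80% purines, a limit chosen after the sequences were seen, were found in 1 of 13 member peaks in Lin- cells, beside 2.28% of all, and in 7 of 23 in CD11b+ cells, beside 7.77% of all. Of these 7, 2 lie exactly at the limit, each in 1 library, so the count depends on where it is put. They also rest on a few libraries: such windows numbered 5, 1, 6 and 1 in CD11b+ libraries 1 to 4, and in libraries 2 and 4 the 1 window was the *Hoxa6* repeat. Among windows found in CD11b+ libraries alone (15), the purine share ran from 4.44% to 97.0% with a median of 79.4%, and among windows of both cell types (8) it ran from 33.3% to 75.0% with a median of 41.9%. Windows of Lin- libraries alone under members' IDs (5, with the one at *Mir196b*) had 35.0% to 86.4%, with a median of 38.2%. Over all peaks the median was 45.3% in Lin- and 52.6% in CD11b+ cells. A simple repeat of at least 20 bases was found in 0 of 13 member peaks in Lin- cells (10.5% of all) and in 3 of 23 in CD11b+ cells (33.2% of all). Those are the *Hoxa6* and *Hoxa7* purine repeats and a TG repeat of 24 bases in the *Hoxa3* intron at 52200509 to 52200560. Without the purine-rich and repeat windows, 15 of the 23 CD11b+ member peaks were left.

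Short motifs tied to IGF2BP proteins or to methylated adenosine were counted on the RNA strand in 50-base windows around the midpoints. They were CACA and its overlapping form ACAC, then CATT, CATC or CATA, and last the letters GGAC. Any of the 6 was present in 5 of 13 member peaks in Lin- cells, beside 54.9% of all peaks, and in 8 of 23 in CD11b+ cells, beside 45.0%. CACA was present in 2 of 13 (21.8% of all) and in 4 of 23 (24.1% of all), and ACAC in 2 of 13 (17.8%) and 4 of 23 (22.4%). GGAC was present in 1 of 13 (11.2% of all), in the *Hoxa9* window at 52225750, and in 3 of 23 (9.66% of all). CATT was present in 1 of 13 (14.5% of all) and 2 of 23 (7.76% of all), CATC in 0 of 13 (13.8%) and 1 of 23 (6.66%), and CATA in 1 of 13 (10.5%) and 0 of 23 (11.9%). The shared *Hoxa9* window in exon 1 held 1 CACA and 1 ACAC. A match is a description of the letters and not a binding site.

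Around the members, the level of *Hoxa13* at the 5′ end of the cluster was not analysed here. Of 7 noncoding genes of the cluster, 4 are in both tables. *Hotairm1*, on the other strand at the 3′ end, was the highest (76.7 per kb in Lin- and 43.3 per kb in CD11b+ cells) and had peaks in CD11b+ libraries 1 and 4 (5 and 4 reads). *Hoxaas3* had 21.1 and 27.2 per kb, *Hoxaas2* 3.9 and 1.6, and *Hoxa11os* 0.778 and 2.22. The readthrough gene *Gm28308* had 75.1 and 41.2 per kb and no peak under its own ID. Thus every listed noncoding gene was below *Hoxa10* per kb. Of the genes flanking the cluster, 4 of 4 listed had a peak in Lin- cells (26.5% of all genes in the table) and 4 of 5 in CD11b+ cells (25.6%), with *Tax1bp1* highest (3090 and 1238 per kb). Of the *Hoxb*, *Hoxc* and *Hoxd* genes, 10 are in at least 1 table, and *Hoxb4* was the highest in both (123 and 69.5 per kb). It was followed by *Hoxb3* (66.3) and *Hoxb2* (44.9) in Lin- and by *Hoxb2* (49.4) and *Hoxb3* (18.5) in CD11b+ cells. *Hoxb4* was the only one with a peak, in 2 Lin- libraries. *Hoxa7*, *Hoxa9* and *Hoxa10* were each above every one of these genes listed in the same table per kb, 9 in Lin- and 8 in CD11b+ cells.

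Of 9 cofactor genes, whose proteins bind DNA together with HOX proteins, 5 had a peak in Lin- cells (26.5% of all genes in the table) and 7 in CD11b+ cells (25.6%). *Meis1* had 325 per kb in Lin- cells (percentile 74.8) and 47.1 in CD11b+ cells (percentile 54.2). *Pbx3* had 74.1 per kb (percentile 56.4) and 194 per kb (percentile 72.7). *Pbx2* was highest in both tables (610 and 360 per kb). *Meis1* and *Pbx3* thus moved in opposite directions by percentile, and *Hoxa9* was above all 9 in each table. Of 13 genes of the MLL complexes and of chromatin regulators that act on the cluster, 12 had a peak in Lin- and 10 in CD11b+ cells. All 13 had a mean of 10 normalized counts or more, and of all such genes 39.8% and 37.1% had a peak. Their median percentiles by level were 86.0 and 78.0. *Aff1* and *Kmt2a*, the mouse genes of the fusion's parts, carried 1385 and 405 Lin- peaks and 12 and 58 CD11b+ peaks, and peaks of the transgene and of these genes cannot be told apart. *Igf2bp3* itself had 470 and 312 per kb and a peak in 4 of 6 Lin- and 4 of 4 CD11b+ libraries.

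The genes most like *Hoxa9* were taken by the Euclidean distance between numbers of filtered peaks over the 10 eCLIP libraries. They were *Arhgdia* (3.61), *Arhgap30* (3.74), *Rbm25* (4.12), *Erp29* (4.58) and *H2-D1* (4.58).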

How the data were processed

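RNA-seq was read from 1 table per cell type. The authors mapped reads of poly(A)-selected RNA, single-end and strand-specific, to mm10 with STAR 2.5.3a, masked repeats with Bowtie2 and RepeatMasker and ran DESeq2 (no versions of these are given), and the signal used here is the mean normalized count per gene that they deposited, pooled over WT and I3KO. The same tables hold the authors' genotype comparison (fold change, standard error, Wald statistic, p, adjusted p, 2 marks for eCLIP peaks and a threshold mark), which is neither used nor printed here, so no genotype difference is reported. For eCLIP and smInput, the authors deposited CLIPper peaks per library with a p-value for each, kept those below 0.05, and removed eCLIP peaks that overlap input peaks by a fraction of at least 0.0001. Inputs were deduplicated and called with other settings than eCLIP libraries, by the file headers.

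Tables, peaks and GENCODE M21 genes (basic set, GRCm38) were joined by Ensembl ID with Python 3.11.15, pandas 2.3.3, numpy 2.4.6 and scipy 1.17.1, and drawn with matplotlib 3.10.9. Positions are counted from 1. Peaks were merged where they overlap or touch on the same strand. Peak numbers per biological library were compared by exact permutation tests, two-sided, 3 per member (Lin- against CD11b+ cells, and eCLIP against input in each cell type), 27 in all, with no adjustment, and technical libraries were left out of them. Inputs were paired with eCLIP libraries by the replicate number in the labels. With 0 input peaks on every member, this pairing could not be checked on the members. The code was tested on simulated data.

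Genes named beside the members come from lists: *Hoxa13*, noncoding and readthrough genes of the cluster, flanking genes, the other *Hox* genes (the 3 highest per kb named), cofactors, MLL and chromatin genes, *Igf2bp3*, cell markers, and the 5 genes closest in peak numbers to the member with the most Lin- windows (*Hoxa3* and *Hoxa9* tied, and *Hoxa9* has a level). Not every gene of these lists is reported here. Members and lists were chosen with earlier results of these data known. Of the alternatives, 46 were planned and 9 added. The limits for purines (80%) and simple repeats (20 bases, units of up to 6 bases) and the added alternatives were chosen after the sequences were seen.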

Additional observations from a re-analysis of the deposited data

Results flagged for a closer look

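Each group of 4 to 6 libraries was searched for a highest or lowest library with a wide gap to the next (Dixon's test). Of 18 groups of values, 5 had such a library. Chance flags about 1 in 20 groups of independent libraries, and the technical libraries in these groups are not independent. Lin- library 2 stood apart with 15 peaks on the members, and with 0.149% of its peaks on them. The *Hoxa9* 5′ UTR window stood apart in CD11b+ library 1, with 22 reads. The same Lin- library 2 had 1364 reads in a peak of the antisense gene *Hoxaas3*, and Lin- input 1 had 155 there.

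This *Hoxaas3* peak lies on the plus strand of chromosome 6 at 52204596 to 52204600, next to the start of *Hoxa5*, and belongs to data that the counts on the members do not use. Before the filter it was in all 10 eCLIP libraries, with a median of 260.5 reads in Lin- (45 to 1364) and 44.50 in CD11b+ cells (10 to 140). The medians in the inputs were 6.0 (0 to 155) and 1.5 (0 to 4), with a peak in 4 of 6 and 2 of 4 inputs, and the filter removed it. Its cause was not tested. Under the ID of *Mir196b*, which is not a member, 2 CD11b+ libraries had a peak and no input did.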

How the results depend on the processing

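Of 212 values under alternative settings for 39 results, 182 kept their sign, stayed at 0, kept their rank or, for counts, stayed within 1.5 times. Single differences among them still moved by more. Another 28 moved and 2 turned in sign. Part of the 182 was fixed in advance, so their number does not measure stability. Differences from inputs of 0 cannot turn in sign, members without a peak stay at 0, and the filter removed 0 member peaks. No test here could pass 0.05 under any setting, as the smallest p was 0.10. Windows in at least 2 biological libraries numbered 7 in Lin- (of 13) and 5 in CD11b+ cells (of 23), and members with such a peak 4 in CD11b+ cells (of 8), where a rule that asks for more libraries must give fewer. With a CLIPper p below 0.001, CD11b+ cells had 4 members and 12 windows. By gene span they had 7 members, and with at least 5 reads, an alternative chosen after seeing the data, 6. Without purine-rich or repeat windows, an alternative chosen after seeing the data, CD11b+ cells had 15 windows. Within 25 bases of a 3′ splice site, the CD11b+ count was 0 (of 3). For these the cause was not tested. With biological libraries alone and 1 left out, Lin- windows numbered 8 to 13 (8 without library 2), CD11b+ members 5 to 5, and CD11b+ windows 8 (without library 1) to 14 (without library 2), where fewer libraries were merged. *Hoxa9* ranked 2 by level in CD11b+ cells with the longest transcript, and 3 CD11b+ members had a mean of at least 100.

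For Lin- minus CD11b+ peaks per library, adding technical libraries, which are not independent, turned *Hoxa4* to -0.0833, took *Hoxa7* to 0 and *Hoxa9* to -0.917. It also moved *Hoxa3* from -0.50 to -0.917 and *Hoxa5* from -0.50 to -0.25. Without peaks at the *Mir196b* hairpin, an alternative added after seeing the data, *Hoxa9* was at -1.67. Without peaks in windows shared with another member, also added then, *Hoxa3* was at -0.667. Leaving out 1 library moved *Hoxa9* from -2.33 to 1.67 (1.67 without CD11b+ library 1), *Hoxa2* and *Hoxa5* from -1.0 to 0, *Hoxa3* from -1.5 to 0, *Hoxa4* from 0 to 0.50 and *Hoxa6* from -2.0 to 0. For eCLIP minus smInput, leaving out 1 pair moved CD11b+ *Hoxa2* and *Hoxa5* from 0 to 1.0 and Lin- *Hoxa4* and *Hoxa10* from 0 to 0.50. It also lowered CD11b+ *Hoxa9* from 5.0 to 3.0 (without pair 1), Lin- *Hoxa3* from 2.0 to 1.0 and Lin- *Hoxa6* from 1.0 to 0.50 (without pair 2), and CD11b+ *Hoxa6* from 2.0 to 1.0 (without pair 1). The cause was not tested, and for members with 1 or no peak in most libraries a single one sets such a difference. *Hoxa9* is not among these, with 7 and 3 peaks in the CD11b+ pair. With replicate number as a replicate block (paired, exact sign-flip), the *Hoxa9* differences from input were the same, 4.67 in Lin- (p = 0.25) and 5.0 in CD11b+ cells (p = 0.50), p-values that input counts of 0 fix. Read depth is unknown, so a peak missing from a library may lie below its depth.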
